A study of Mus musculus with 24 samples.

Results

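The potassium channel genes described here are all genes whose platform symbol is Kcn followed by letters and a number. They are 84 of 19057 named genes on the array and are read by 167 probes. Each gene is represented by its probe of highest mean signal, since 49 of the genes have more than 1 probe. By role they are 25 voltage-gated channel genes, 10 genes for silent subunits, 14 for auxiliary subunits, 13 for inward rectifiers, 14 for tandem-pore leak channels and 8 for channels activated by calcium or sodium and their relatives.

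Expression was measured on 24 single-colour bead arrays in 8 groups of 3 biological replicates. The groups are SMA and wild-type (WT) FVB mice at postnatal day 4, each in the dorsal root ganglion (DRG), the raphe, the lateral motor column (LMC) and the medial motor column (MMC). SMA is taken to mean spinal muscular atrophy, in which motor neurons are lost. The SMA allele, the way cells were collected and whether animals were pooled are not given in the sources used here. The RNA of both genotypes was amplified before labelling, by a system made for very small samples.

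Potassium channels let potassium leave the cell and so draw the membrane towards its resting voltage. Voltage-gated channels end action potentials and set how fast a neuron can fire again, inward rectifiers and leak channels hold the resting potential, and channels opened by calcium shape the pause after a spike. Silent and auxiliary subunits form no channel alone and change the behaviour of the channels they join. In motor neurons, sensory neurons and serotonergic neurons the choice among these genes is part of what gives each cell its firing pattern.

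The bases before the starts of 4 genes named in the results are shown. Kcnc4, chosen from earlier results of these data, was higher in the SMA raphe, a difference that was not stable, as described below. Kcnd2 was not above background in DRG, and Kcng3 and Kcnk5 were, among WT tissues, above background in DRG alone. Each run is the 250 bases before the RefSeq start in GRCm38.p6, 5′ to 3′ on the strand of the gene. Kcnc4 lies at chr3:107458899-107459148 on the minus strand, Kcnd2 at chr6:21215096-21215345 on the plus strand, Kcng3 at chr17:83631896-83632145 on the minus strand and Kcnk5 at chr14:20181783-20182032 on the minus strand. Capitals mark the GC box, GGGCGG or its reverse complement CCGCCC.
Kcnc4: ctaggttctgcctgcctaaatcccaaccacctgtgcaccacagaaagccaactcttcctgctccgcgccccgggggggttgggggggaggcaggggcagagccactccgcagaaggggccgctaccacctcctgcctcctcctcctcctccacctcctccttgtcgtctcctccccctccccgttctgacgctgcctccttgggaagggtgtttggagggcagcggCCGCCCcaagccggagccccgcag
Kcnd2: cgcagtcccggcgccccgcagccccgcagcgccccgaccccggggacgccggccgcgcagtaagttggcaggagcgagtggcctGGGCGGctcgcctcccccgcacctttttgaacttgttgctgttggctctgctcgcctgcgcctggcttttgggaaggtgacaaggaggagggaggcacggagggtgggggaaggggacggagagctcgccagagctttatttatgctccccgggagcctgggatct
Kcng3: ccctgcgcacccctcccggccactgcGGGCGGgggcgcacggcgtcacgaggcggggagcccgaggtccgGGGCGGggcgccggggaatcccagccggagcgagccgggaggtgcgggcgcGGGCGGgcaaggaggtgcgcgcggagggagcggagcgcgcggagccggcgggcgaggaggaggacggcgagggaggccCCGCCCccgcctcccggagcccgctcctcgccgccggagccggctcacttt
Kcnk5: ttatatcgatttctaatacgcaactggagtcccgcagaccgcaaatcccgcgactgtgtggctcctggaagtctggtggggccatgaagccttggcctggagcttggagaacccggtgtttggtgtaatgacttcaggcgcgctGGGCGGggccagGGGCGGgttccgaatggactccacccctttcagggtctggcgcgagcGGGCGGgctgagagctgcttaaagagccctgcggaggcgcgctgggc

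The 4 runs differ in composition, with 68.0% G or C before Kcnc4, 68.8% before Kcnd2, 82.4% before Kcng3 and 62.8% before Kcnk5. The GC box occurred 1 time before Kcnc4, 1 time before Kcnd2, 4 times before Kcng3 and 3 times before Kcnk5. The TATA box TATAAA, the CCAAT box, the E-box motif CACGTG and the cyclic AMP response motif TGACGTCA, searched on both strands, had no match in these windows. RefSeq windows were at hand for 64 of the 84 genes, 89 windows in all. GGGCGG lay in 44.9% of them and in 32.7% of all 32851 windows of the same length. TATAAA lay in 2.25% of the potassium channel windows and in 12.4% of all windows, CCAAT in 27.0% and 33.8%, and CACGTG in 6.74% and 6.02%. TGACGTCA lay in 0 of the 89 and in 1.55% of all windows.

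A gene is called above background, or detected, where its detection p was under 0.05. On each array 33.7 to 49.7% of probes were detected, and the lower end was SMA LMC replicate 2. Smn1, the gene lost in SMA, was detected on 0 of 12 SMA arrays and on 12 of 12 WT arrays. The tissue labels were checked against marker genes. In WT, all 6 motor neuron markers were detected on all 3 arrays of both motor columns, all 5 serotonergic markers in the raphe, and 3 of 4 sensory markers in DRG, where Prdm12 was the other. Not all markers were particular to their tissue, since 4 of the 6 motor neuron markers (Chat, Isl1, Isl2 and Prph) and 3 of the 5 serotonergic markers (Tph2, Slc18a2 and Maob) were also detected on all 3 WT DRG arrays. Isl1 was 1.52 higher and Isl2 2.46 higher in WT DRG than in the WT motor columns (adjusted p = 5.02e-05 for Isl1 and 3.55e-07 for Isl2), while all 5 serotonergic markers were lower in DRG than in the raphe. Each tissue lies on a slide of its own, so tissue and slide cannot be told apart, and genotypes share a slide but hold different positions on it. Replicate arrays correlated at 0.830 to 0.977, lowest in WT MMC. In these bulk samples fewer cells of a type and less RNA per cell cannot be told apart.

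Of the 84 genes, 55 were detected on all 3 arrays of at least 1 group, 19 on some arrays but on all 3 of no group, and 10 on none of the 24. The 10 were Kcna7, Kcne1, Kcne3, Kcng1, Kcnh3, Kcnh8, Kcnj1, Kcnj15, Kcnk7 and Kcnv2, whose log2 levels lay between 4.33 and 5.78. By group, 40 of 84 were detected on all 3 SMA DRG arrays against 43 in WT DRG, 32 in the SMA raphe against 36 in the WT raphe, 35 in SMA LMC against 35 in WT LMC, and 32 in SMA MMC against 31 in WT MMC. Of all named genes the shares were 48.9% in SMA DRG against 48.8% in WT DRG and 44.8% in the SMA raphe against 46.7% in the WT raphe. They were 40.2% in SMA LMC against 45.4% in WT LMC and 42.0% in SMA MMC against 41.2% in WT MMC.

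In WT mice, 18 of the 84 genes were detected on all 3 arrays of all 4 tissues, and 15 were detected on all 24 arrays of both genotypes. The shares of all named genes with these patterns, and with those over all groups above, are not given here. The 15 included Kcna2 and Kcna6 of the Shaker family and Kcnc2 and Kcnc4 of the Shaw family, which serves fast repolarization. Kcnh6, an ether-a-go-go related channel gene, was also among them. So were the auxiliary genes Kcnab2, Kcnab3 and Kcnip1, and Kcnj3 and Kcnj6, the channels opened by G proteins. The leak channel genes Kcnk1, Kcnk9 and Kcnk15 and the calcium-activated Kcnma1 and Kcnn2 completed the set.

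**Figure D1:**
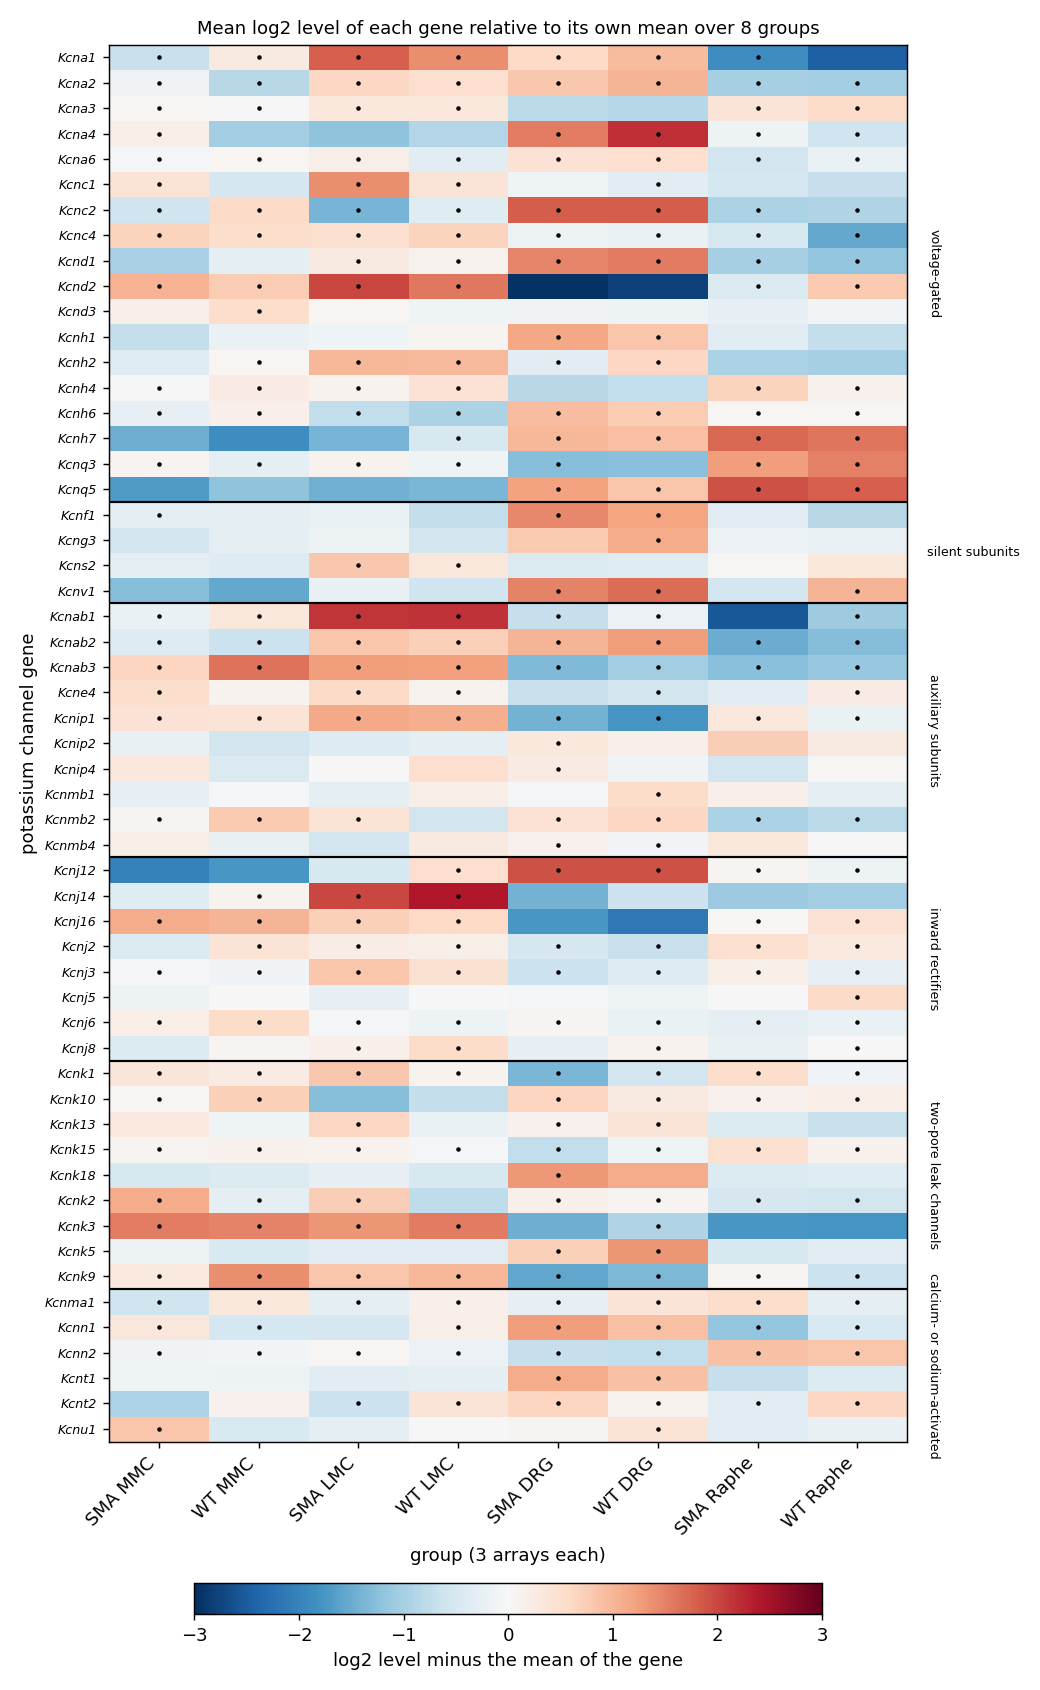
Mean log2 level of the 55 potassium channel genes detected on all 3 arrays of at least 1 group, each relative to its own mean over the 8 groups (columns, SMA left of WT in each tissue), ordered by role; a dot marks detection on all 3 arrays of a group. Kcnd2 is dark blue in both DRG groups, and Kcnk3 is red in all 4 motor column groups and blue elsewhere.

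The silent, calcium- or sodium-activated, leak channel and auxiliary genes had more members detected in WT DRG than in the other WT tissues. Of all named genes, too, the share was highest in WT DRG, at 48.8%, against 46.7% in the WT raphe, 45.4% in WT LMC and 41.2% in WT MMC. Of 10 silent subunit genes, 3 were detected on all 3 arrays of WT DRG, 1 in the WT raphe, 1 in WT LMC and 0 in WT MMC. Of the 8 calcium- or sodium-activated genes the counts were 6 in WT DRG, 4 in the WT raphe, 4 in WT LMC and 3 in WT MMC. Voltage-gated genes had about the same count in all tissues, 13 of 25 in WT DRG, 13 in the WT raphe, 14 in WT LMC and 12 in WT MMC. Of the 13 inward rectifiers, 5 were detected in WT DRG, 7 in the WT raphe, 7 in WT LMC and 5 in WT MMC. Of the 14 leak channel genes, 8 were detected in WT DRG, 5 in the WT raphe, 4 in WT LMC and 6 in WT MMC, and of the 14 auxiliary genes 8 in WT DRG, 6 in the WT raphe, 5 in WT LMC and 5 in WT MMC. None of these counts was tested.

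In WT, 9 genes were detected on all 3 arrays of DRG and on all 3 of no other tissue, namely Kcnf1, Kcng3, Kcnh1, Kcnk13, Kcnk5, Kcnmb1, Kcnmb4, Kcnt1 and Kcnu1. They are 10.7% of the 84, where 3.51% of all 19057 named genes had this pattern. For Kcnd3 this held in WT MMC (0.645% of all named genes), for Kcns2 in WT LMC (1.49%) and for Kcnj5 in the WT raphe (2.07%). Kcng3, a silent subunit gene, and Kcnk5, an alkali-activated leak channel gene, were the only ones also detected on 0 of the 9 other WT arrays, as were 0.462% of all named genes. Kcng3 had log2 levels of 6.24, 5.59 and 6.50 in WT DRG, 4.85, 4.84 and 4.76 in WT raphe, 4.48, 4.50 and 4.41 in WT LMC and 4.61, 4.66 and 4.85 in WT MMC. Its 3 DRG values lay above all others, and all 9 other values are background. In SMA DRG Kcng3 had 5.02, 5.52 and 6.84. The log2 levels of Kcnk5 were 6.90, 6.69 and 4.98 in WT DRG, 4.84, 4.42 and 4.42 in WT raphe, 4.48, 4.46 and 4.73 in WT LMC and 4.36, 4.50 and 4.42 in WT MMC. One DRG array, at 4.98, was close to the highest value elsewhere, while the other DRG arrays stood apart. Kcnk5 was also detected on all 3 SMA DRG arrays.

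Kcnk18, a leak channel gene known for its role in pain-sensing neurons, was close to this pattern. Its log2 levels in DRG were 5.90, 6.83 and 6.05 in SMA DRG, against 4.95, 6.78 and 6.47 in WT DRG. It was detected on 3 SMA and 2 WT arrays of DRG and on 0 of the 18 arrays of the other tissues, where it lay between 4.34 and 4.92. It was not tested in the WT tissue comparisons, because 1 WT DRG array was at background.

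The tissue comparisons in WT used limma on log2 levels, with p-values adjusted over all genes tested, and a gene passed where its adjusted p was under 0.05. A gene was tested if 1 or more of the groups compared had it detected on all 3 arrays. The genes tested thus include those that were let in through their higher tissue alone. Of genes given a p below, these are Kcna1, Kcna3, Kcna4, Kcnd2, Kcnf1, Kcnj12, Kcnj14, Kcnj16, Kcnk3, Kcnq3, Kcnq5 and Kcnv1, each in 1 or more comparisons. Their p-values in those comparisons are no support independent of the filter. Differences of genes with some arrays at background are the fitted values, and may understate the change. In DRG against the mean of both motor columns, 51 potassium channel genes were tested and 27 passed, 16 higher and 11 lower in DRG, where 24.3% of all 10297 genes tested passed (11.5% higher, 12.8% lower). The median log2 difference of the 51 was 0.11, and that of all genes tested was -0.03. In the raphe against the same motor column arrays, 14 of 43 passed, 4 higher and 10 lower, where 29.1% of all genes passed (12.4% higher, 16.7% lower), so the share is close to the background. The median of the 43 was -0.28, and that of all genes -0.11. Both comparisons share the motor column arrays.

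Among the voltage-gated genes, Kcnd2, which encodes the dendritic A-type channel of the Shal family, set DRG apart. Its log2 levels were 4.99, 4.56 and 4.64 in WT DRG, 8.03, 8.24 and 8.71 in WT raphe, 8.94, 9.02 and 9.40 in WT LMC and 7.79, 8.76 and 8.36 in WT MMC. No DRG array was above background and all 9 others were. Kcnd2 was at least 12.8-fold lower in DRG than in the motor columns (adjusted p = 1.39e-09) and at least 9.76-fold lower than in the raphe (adjusted p = 8.76e-08). It entered both tests through the higher tissues alone. In these bounds the dim arrays count at the lowest level that any detected probe had on them, or at the gene's own level if higher. The adjusted p-values belong to the fitted log2 differences of -3.98 from the motor columns and -3.59 from the raphe. A second Kcnd2 probe differed by -2.94 from the motor columns.

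Kcnd1, the other Shal gene that was tested in both comparisons of DRG, went the other way. Its log2 levels were 8.86, 7.99 and 7.85 in WT DRG, 5.35, 5.15 and 5.94 in WT raphe, 6.81, 6.88 and 6.64 in WT LMC and 7.03, 7.05 and 5.10 in WT MMC. All 3 DRG values lay above the 9 others, WT MMC had 1 of 3 arrays at background, and Kcnd1 was higher in DRG by 1.65 than in the motor columns (SE 0.46, adjusted p = 0.00971) and by 2.76 than in the raphe (SE 0.53, adjusted p = 0.000427). Without WT DRG replicate 1 the first of these gave 1.34 (adjusted p = 0.0668). Kcnip1, the calcium sensor that joins Shal channels, was lower in DRG by 2.53 than in the motor columns (SE 0.32, adjusted p = 1.84e-06), with log2 levels in WT DRG of 6.89, 7.06 and 7.49, all below those of the other tissues. A second Kcnip1 probe differed by -2.88 from the motor columns. From the raphe it differed by only -0.06, against -1.57 on the first probe.

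Shaker genes differed between the tissues in either direction. Kcna4, an inactivating Shaker channel gene, had log2 levels of 8.96, 8.32 and 9.41 in WT DRG, 6.40, 6.62 and 5.32 in WT raphe, 5.34, 6.02 and 6.14 in WT LMC and 5.07, 7.12 and 4.80 in WT MMC. It stood above all others in DRG, and was at background on 2 of 3 WT MMC arrays and 1 of 3 WT LMC arrays. In DRG it was higher by 3.15 than in the motor columns (SE 0.45, adjusted p = 1.1e-05) and by 2.78 than in the raphe (SE 0.52, adjusted p = 0.000333). Kcna1, which encodes a delayed rectifier of axons, had 7.95, 8.46 and 8.49 in WT DRG, 5.24, 4.41 and 5.12 in WT raphe, 9.96, 8.03 and 8.27 in WT LMC and 6.89, 7.52 and 8.44 in WT MMC. The raphe was low on all 3 arrays, of which 2 were at background, by 3.26 below the motor columns on the log2 scale (difference -3.26, SE 0.45, adjusted p = 1.28e-05), and DRG was 3.38 above the raphe (SE 0.52, adjusted p = 3.44e-05). Kcna2, the partner of Kcna1 in axons, was 2.03 higher in DRG than in the raphe (SE 0.52, adjusted p = 0.00621), a call lost without WT Raphe replicate 3 (1.61, adjusted p = 0.0540).

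The beta subunits that bind Shaker channels followed the tissues too. Kcnab3 had log2 levels of 7.58, 7.36 and 6.89 in WT DRG, 7.55, 7.06 and 6.89 in WT raphe, 9.67, 9.56 and 9.41 in WT LMC and 9.89, 9.85 and 10.09 in WT MMC. Both motor columns lay above both other tissues on every array, with differences of -2.47 in DRG (SE 0.30, adjusted p = 9.68e-07) and -2.58 in the raphe (SE 0.30, adjusted p = 1.28e-06). Kcnab1 was lower in the raphe by 2.32 than in the motor columns (SE 0.39, adjusted p = 0.000125), with 2 of its 3 other probes detected on at least 3 arrays of the same sign. Kcnab2 was 2.54 higher in DRG than in the raphe (SE 0.29, adjusted p = 4.47e-07).

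Kcnc4, the inactivating channel of the Shaw family, had log2 levels of 11.52, 11.48 and 11.53 in WT DRG, 10.44, 10.72 and 9.38 in WT raphe, 12.42, 12.42 and 12.30 in WT LMC and 12.22, 12.12 and 12.36 in WT MMC. On this probe the motor columns were highest and the raphe lowest, with no overlap between DRG, raphe and motor columns. It was lower in the raphe than in the motor columns by 2.13 (SE 0.18, adjusted p = 7.53e-09), and the second Kcnc4 probe was lower by 1.81. In DRG it differed from the motor columns by -0.80 (SE 0.18, adjusted p = 0.00163), but the second probe by 1.72, and the mean of both gave 0.46 (adjusted p = 0.200). The direction of Kcnc4 between DRG and the motor columns thus depends on the probe. Kcnc2, another Shaw gene, was 2.72 higher in DRG than in the raphe (SE 0.60, adjusted p = 0.00178), while the mean of its detected probes gave 1.08 (adjusted p = 0.153).

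Kcnq5 and Kcnq3, genes for the M current, a slow potassium current that muscarinic receptors close, were higher in the raphe than in the motor columns. Kcnq5 had log2 levels of 6.58, 7.32 and 7.71 in WT DRG, 8.23, 7.83 and 8.40 in WT raphe, 4.45, 5.89 and 4.60 in WT LMC and 5.58, 4.80 and 5.05 in WT MMC. Neither DRG nor the raphe overlapped with the motor columns, which were at background on 2 of 3 arrays each, with differences of 2.14 in DRG (SE 0.37, adjusted p = 0.000102) and 3.09 in the raphe (SE 0.36, adjusted p = 1.64e-06). The only other Kcnq5 probe detected on any array had differences of 0.60 in DRG and 0.90 in the raphe. Kcnq3 had 5.10, 6.12 and 6.41 in WT DRG, 8.25, 8.85 and 8.82 in WT raphe, 7.23, 7.14 and 6.62 in WT LMC and 8.02, 6.77 and 5.69 in WT MMC. All raphe values lay above those of the other tissues, by 1.73 on average over the motor columns (SE 0.48, adjusted p = 0.0103). Kcnq3 was lower in DRG than in the raphe (difference -2.76, SE 0.56, adjusted p = 0.000774), with 1 of 3 DRG arrays at background. The second Kcnq3 probe had smaller differences of the same sign, 0.21 in the raphe against motor columns and -0.61 in DRG against the raphe. Kcnh7, an ether-a-go-go related gene, was also higher in the raphe than in the motor columns, by 2.77 (SE 0.62, adjusted p = 0.002, with 2 of 3 WT MMC arrays at background), while its other probes differed by 0.07 and 0.38.

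Of the silent subunits, Kcnv1 was higher in both tissues than in the motor columns. Its log2 levels were 7.89, 7.90 and 7.35 in WT DRG, 7.03, 6.87 and 7.35 in WT raphe, 6.38, 5.56 and 4.42 in WT LMC and 4.53, 4.62 and 4.37 in WT MMC. WT MMC was at background on all 3 arrays and WT LMC on 1. With the WT MMC arrays counted as in the bounds for Kcnd2, Kcnv1 was 5.08-fold higher in DRG than the mean of both columns. In the raphe it was 3.28-fold higher. The WT LMC array at background kept its own level, so these are not strict lower bounds. The fitted differences in limma were 2.74 in DRG (adjusted p = 5.43e-05) and 2.10 in the raphe (adjusted p = 0.00123). The second Kcnv1 probe had differences of 1.19 in DRG and 0.38 in the raphe. Kcnf1 was at background on all 3 WT LMC arrays and was not detected on all 3 of WT MMC. With only the WT LMC arrays counted as in those bounds, it was 3.02-fold higher in DRG than in the motor columns. Its fitted difference was 1.68 (adjusted p = 0.000475), and its second probe had a difference of 0.62. Kcng3 was at least 1.79-fold higher in DRG, given without a p. Like Kcng3, Kcnf1 and Kcnv1 entered the DRG test through DRG alone. Kcnv1 entered the raphe test through the raphe alone.

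**Figure D2:**
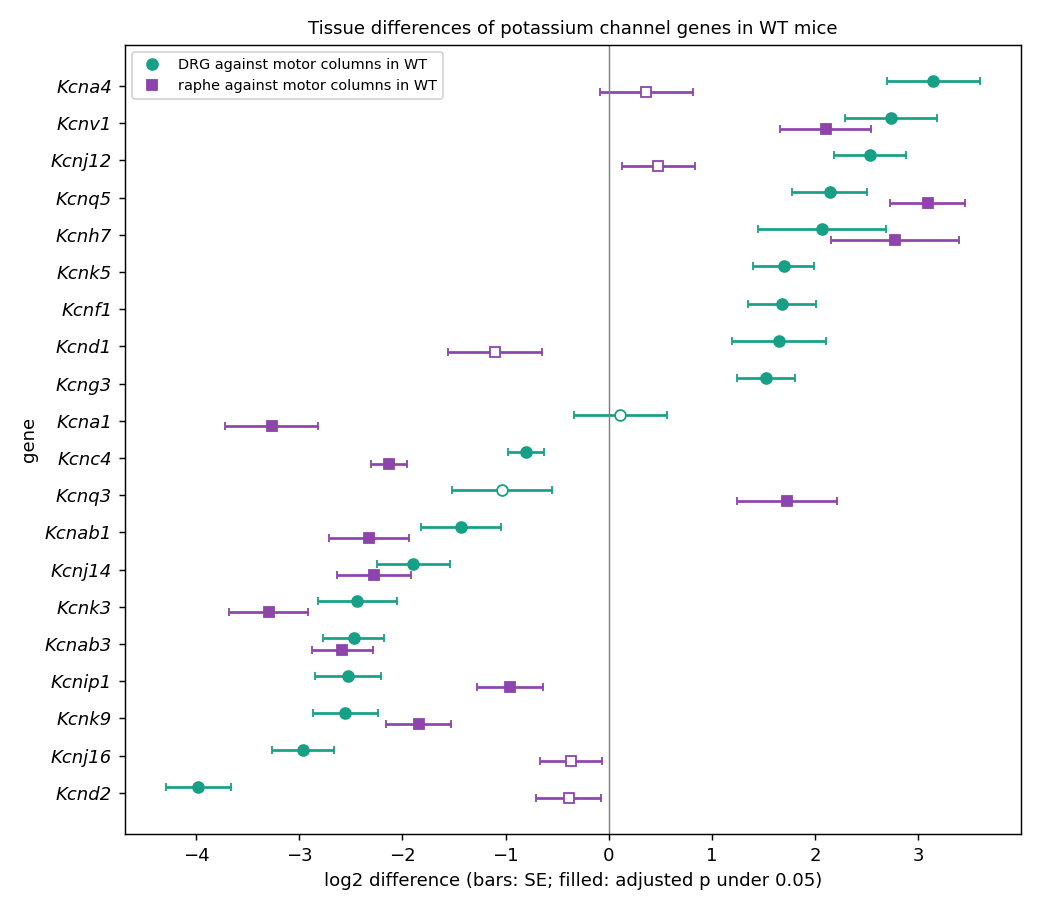
Log2 difference from the mean of both WT motor columns of 20 named potassium channel genes in WT DRG (circles) and WT raphe (squares), as fitted, also where arrays were at background; bars are standard errors, and filled symbols have an adjusted p under 0.05. Kcnd2 and Kcnj16 were lower in DRG alone among filled symbols, while Kcnk3, Kcnab3 and Kcnk9 were lower in both tissues.

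Kcnk3 and Kcnk9, genes for leak channels that acid closes, were lower in both other tissues than in the motor columns. Kcnk3 had log2 levels of 6.92, 5.65 and 5.46 in WT DRG, 5.55, 5.16 and 4.75 in WT raphe, 8.87, 8.10 and 8.48 in WT LMC and 8.23, 8.83 and 8.16 in WT MMC. The 6 motor column values lay above the 6 others, with differences of -2.44 in DRG (SE 0.38, adjusted p = 3.96e-05) and -3.29 in the raphe (SE 0.38, adjusted p = 1.43e-06), where 1 of 3 arrays was at background. Its close relative Kcnk9 had 6.56, 6.87 and 7.09 in WT DRG, 7.50, 7.79 and 7.35 in WT raphe, 9.40, 9.13 and 9.01 in WT LMC and 10.14, 9.40 and 9.25 in WT MMC. It separated the same way, by -2.55 in DRG (SE 0.32, adjusted p = 1.5e-06) and by -1.84 in the raphe (SE 0.32, adjusted p = 0.000167), and its other probes had the same sign in both. Kcnk5, which also entered the test through DRG alone, was at least 1.88-fold higher in DRG than in the motor columns, but the only other Kcnk5 probe detected on at least 3 arrays had a difference of 0.00.

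Among inward rectifiers, Kcnj16, which in brain is known mainly from glia, had log2 levels of 4.89, 4.62 and 5.05 in WT DRG, 7.70, 7.12 and 7.52 in WT raphe, 7.37, 7.77 and 7.68 in WT LMC and 7.85, 8.66 and 7.54 in WT MMC. DRG was low on all 3 arrays, of which 2 were at background, by 2.96 on the log2 scale from the motor columns (difference -2.96, SE 0.30, adjusted p = 6.93e-08). Astrocyte markers were lower in DRG too. Of 6 such markers, 5 were lower in DRG than in the motor columns and the other lay below 0, with a median difference of -3.14, and their array means were 5.89 to 6.63 in WT DRG, 8.63 to 8.71 in WT LMC and 9.63 to 10.21 in WT MMC, with Gfap at background on all WT DRG arrays. In the raphe against the motor columns all 6 markers lay above 0, with a median difference of 1.05. Of the 6, 2 passed there, Aqp4 and Gfap, where 29.1% of all genes did. Kcnj16 differed by -2.60 in DRG against the raphe and by -2.96 in DRG against the motor columns. The part of astrocytes in the result was not tested. Kcnj12, a strong inward rectifier, was 2.53 higher in DRG than in the motor columns (SE 0.35, adjusted p = 7.26e-06) and 2.05 higher than in the raphe (SE 0.40, adjusted p = 0.000601). Its log2 levels were 8.58, 8.86 and 8.73 in WT DRG, 7.04, 7.30 and 5.67 in WT raphe, 6.97, 7.51 and 7.48 in WT LMC and 4.84, 5.59 and 4.74 in WT MMC, so that WT MMC alone had arrays at background, 2 of 3. Kcnj14 differed by -2.27 between the raphe and the motor columns (SE 0.36, adjusted p = 6.11e-05), with 1 of 3 raphe arrays at background.

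In DRG against the raphe, 25 of 49 potassium channel genes tested passed, 19 higher and 6 lower in DRG, where 20.1% of all genes passed (11.3% higher, 8.84% lower). The median difference of the 49 was 0.63, and that of all genes 0.05. Beside the genes above, Kcna3, at background on 2 of 3 WT DRG arrays, was lower in DRG by 1.42 (SE 0.49, adjusted p = 0.042) and Kcnn2, which encodes a calcium-activated channel of small conductance, by 1.57 (SE 0.51, adjusted p = 0.0327). Both calls were lost with the authors' deposited normalized values (adjusted p = 0.0798 for Kcna3 and 0.0722 for Kcnn2), without a filter on dim genes and without several single arrays.

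Between the columns, 5 of 39 potassium channel genes passed in WT LMC against WT MMC, 4 higher and 1 lower in LMC, where 3.61% of all genes passed (2.01% higher, 1.6% lower). The median difference of the 39 was 0.17, and that of all genes 0.15. Kcnj14, a strong inward rectifier that in rat was described in motor nuclei, had log2 levels of 8.87, 8.57 and 8.00 in WT LMC, against 5.89, 6.60 and 6.09 in WT MMC. Every LMC value was higher, by 2.29 on average (SE 0.40, adjusted p = 0.0019). Kcnj12 had 6.97, 7.51 and 7.48 in WT LMC, against 4.84, 5.59 and 4.74 in WT MMC. It was 2.26 higher (SE 0.40, adjusted p = 0.0019), with no overlap, and entered this test through LMC alone.

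Kcnab1 and Kcnab2, Shaker beta subunit genes, were higher in LMC as well, while the third of them, Kcnab3, had a difference of -0.39 that did not pass (adjusted p = 0.538), with every LMC value below every MMC value. Kcnab2 had 11.68, 11.11 and 11.21 in WT LMC, against 9.52, 10.45 and 9.94 in WT MMC (difference 1.37, SE 0.29, adjusted p = 0.00881). For Kcnab1 the log2 levels were 10.14, 10.46 and 10.62 in WT LMC, against 7.82, 8.82 and 9.13 in WT MMC (difference 1.82, SE 0.45, adjusted p = 0.0238). Neither gene overlapped between the columns. The 1 gene that passed in the other direction was Kcnh6, with 10.18, 10.25 and 9.66 in WT LMC, against 11.37, 10.92 and 11.07 in WT MMC (difference -1.09, SE 0.20, adjusted p = 0.00293). Kcnab1 missed the threshold without WT MMC replicate 1 or without any 1 WT LMC array (adjusted p = 0.0609 to 0.0981) and Kcnab2 without WT LMC replicate 1 (0.0649). With only the 6 WT arrays of both columns in the fit, Kcnh6 (0.0508) and Kcnj14 (0.0524) missed it.

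Glial markers differed between the columns too. Of 6 astrocyte markers 2 were lower in WT LMC than in WT MMC and 0 higher, and of 4 oligodendrocyte markers tested 3 were lower and 0 higher. Array means of the oligodendrocyte markers were 6.36 to 7.56 in WT LMC and 9.09 to 9.75 in WT MMC, with Mog at background in both. Of 6 motor neuron markers 1, Isl1, was higher and 5 lay above 0, where 60.2% of all genes did, with array means of 8.98 to 9.28 in WT LMC and 8.44 to 8.81 in WT MMC. Their part in the differences of the channel genes was not tested.

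**Figure D3:**
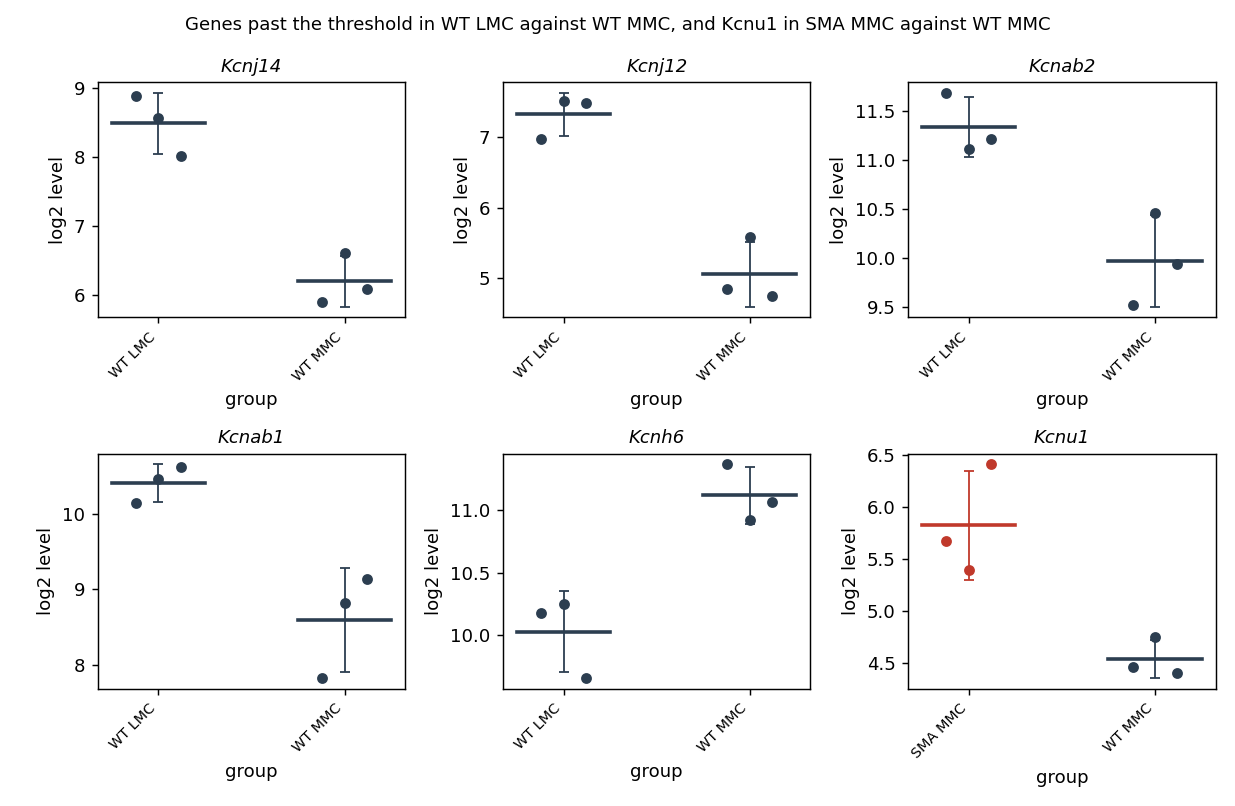
Log2 levels on single arrays (points), with the mean (line) and SD (bar) of 3 arrays, of the 5 potassium channel genes past the threshold in WT LMC against WT MMC and of Kcnu1 in SMA MMC against WT MMC; axes start at different levels. No gene overlaps between its groups.

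SMA mice were compared with WT mice within each tissue. Few potassium channel genes passed, 1 of 36 tested in MMC, 0 of 38 in LMC, 0 of 47 in DRG and 1 of 37 in the raphe. Of all genes tested, 1.51% passed in MMC and 0.0331% in LMC, as did 0.0101% in DRG and 0.234% in the raphe. The gene in MMC, Kcnu1, entered its test through the SMA arrays alone. The gene in the raphe, Kcnc4, had been named beforehand from these same data. Neither count is therefore a result about the potassium channel genes as a set. The median log2 difference of the potassium channel genes was -0.02 in MMC (0.06 for all genes), 0.11 in LMC (0.03 for all genes), -0.07 in DRG (-0.03 for all genes) and 0.01 in the raphe (-0.02 for all genes). In limma's unadjusted test 6 of 36 in MMC (15.1% of all genes), 6 of 38 in LMC (6.99%), 2 of 47 in DRG (1.39%) and 5 of 37 in the raphe (6.89%) had a p under 0.05. Genes whose SMA and WT arrays did not overlap numbered 5 in MMC (14.6% of all genes) and 5 in LMC (10.2%), and there were 7 in DRG (8.61%) and 9 in the raphe (14.5%).

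**Figure D4:**
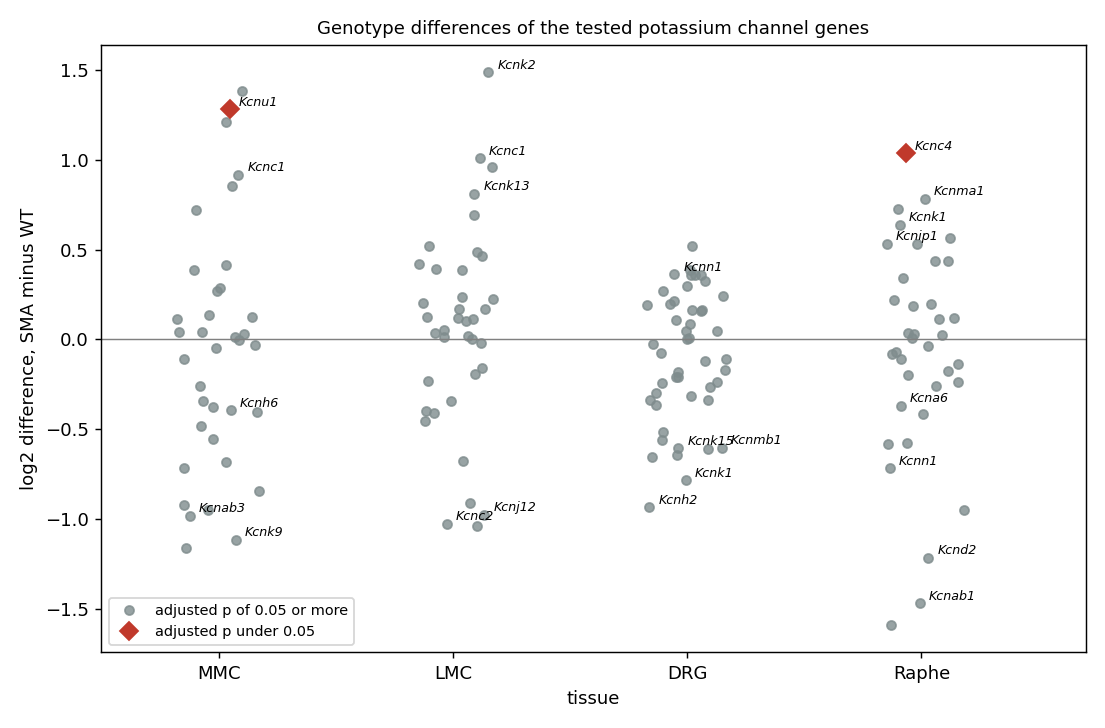
Log2 difference, SMA minus WT, of every potassium channel gene tested in MMC (36 genes), LMC (38), DRG (47) and raphe (37); red diamonds have an adjusted p under 0.05, and names mark the genes named for that tissue. Kcnu1 in MMC and Kcnc4 in the raphe are the only diamonds.

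Kcnc4 rose in the SMA raphe. It had been named for this from earlier results of these same data, so the p below is no independent support. It had log2 levels of 11.02, 11.24 and 11.39 in SMA raphe, against 10.44, 10.72 and 9.38 in WT raphe. All SMA values lay above all WT values, and WT Raphe replicate 3 was the lowest by far. The mean was 11.22 ± 0.19 in the SMA raphe and 10.18 ± 0.71 in the WT raphe (SD, n = 3 each), a difference of 1.04 (SE 0.20, adjusted p = 0.0261). The second Kcnc4 probe had 5.08, 7.06 and 6.45 in the SMA raphe, against 5.49, 5.91 and 4.72 in the WT raphe, a difference of 0.82 with overlapping groups.

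The rise of Kcnc4 was not stable. Without WT Raphe replicate 3 the difference was 0.64 (adjusted p = 0.0783). The call was also lost without SMA Raphe replicate 2 or 3, with scale normalization, with the mean of both probes, without a variance trend and with only the raphe arrays in the fit, where adjusted p-values over all alternatives ranged from 0.00346 to 0.380. The other tissues had differences of 0.05 in DRG (adjusted p = 1.00), -0.19 in LMC (0.847) and 0.14 in MMC (0.807). The difference of these effects did not pass for the raphe minus DRG (0.99, adjusted p = 0.877), minus LMC (1.23, adjusted p = 0.315) or minus MMC (0.90, adjusted p = 0.241), so Kcnc4 is not shown to differ between tissues in its response to genotype.

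Markers of serotonergic neurons stood higher in the same SMA arrays, though none passed. All 5 of 5 lay above 0, where 47.4% of all genes tested did, with a median difference of 0.59. Their array means were 10.17 to 10.66 in the SMA raphe and 9.64 to 10.13 in the WT raphe. Of 6 astrocyte markers 0 lay above 0, with array means of 9.86 to 9.99 in the SMA raphe and 9.99 to 10.54 in the WT raphe. Of 5 pan-neuronal markers 2 lay above 0, with a median difference of -0.13. The part of these cell types in the difference of Kcnc4 was not tested.

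**Figure D5:**
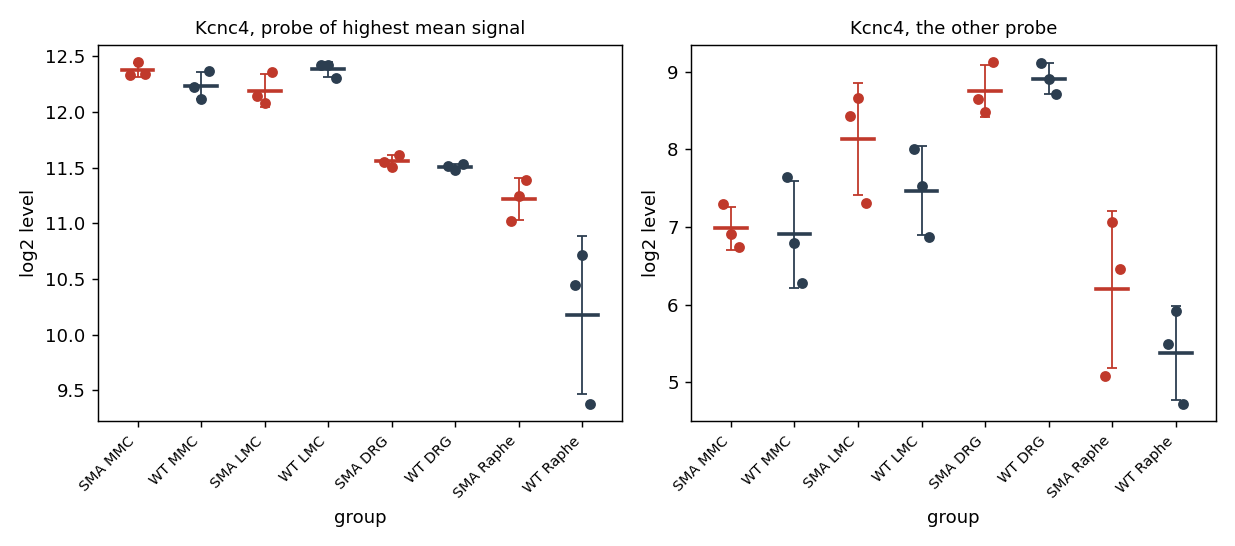
Log2 level of Kcnc4 on single arrays (points), with the mean (line) and SD (bar) of 3 arrays, for the probe of highest mean signal (left) and the other probe (right) in 8 groups, SMA left of WT in each tissue; the axes start at different levels. On the left the 3 SMA raphe values lie above the WT raphe values, and WT Raphe replicate 3 is lowest at 9.38; on the right DRG is highest and the raphe groups overlap.

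The other genes with separate groups in the raphe did not pass. Kcnab1 had 5.87, 6.58 and 4.68 in SMA raphe, against 6.95, 7.03 and 7.56 in WT raphe, a difference of -1.47 (SE 0.45, adjusted p = 0.311) with 1 of 3 SMA arrays at background, while its 3 other probes differed by -0.09 to 0.33. Kcnd2 had 6.56, 7.74 and 7.02 in SMA raphe, against 8.03, 8.24 and 8.71 in WT raphe, a difference of -1.22 (SE 0.36, adjusted p = 0.291), and -0.83 on its second probe. Both were lower on every SMA array of the raphe. Kcnk1, a weakly conducting leak channel gene, differed by 0.64 (adjusted p = 0.665), Kcnma1, the calcium-activated channel of large conductance, by 0.78 (0.845), Kcnip1 by 0.53 (0.868), Kcnn1 by -0.72 (0.828) and Kcna6 by -0.37 (0.804).

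Kcnu1, which encodes a sperm channel related to Kcnma1, was the gene that passed in MMC. Its log2 levels were 5.67, 5.39 and 6.41 in SMA MMC, against 4.46, 4.75 and 4.41 in WT MMC. It was above background on all 3 SMA arrays and on 0 WT arrays, and was at least 1.45-fold higher in SMA MMC. The fitted difference was 1.28 in limma (adjusted p = 0.0164). Kcnu1 entered the MMC test only through the SMA arrays, where it is high, so this p is no support independent of the filter. With a detection p under 0.01 no potassium channel gene passed in MMC. Means were 5.82 ± 0.52 in SMA MMC and 4.54 ± 0.18 in WT MMC (SD, n = 3 each). The call was lost without SMA MMC replicate 3 (adjusted p = 0.0837), with array weights (0.0879) and in a fit of the 6 MMC arrays (0.289), among alternatives that ranged from 0.00988 to 0.289. In the other tissues it lay between 4.48 and 5.62.

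Genes with separate groups that did not pass in MMC were led by Kcnk9 and Kcnab3, both of which also distinguished the motor columns from other tissues. Kcnk9 had 8.20, 8.71 and 8.53 in SMA MMC, against 10.14, 9.40 and 9.25 in WT MMC, a difference of -1.12 (SE 0.37, adjusted p = 0.134), and its other detected probes gave -0.89 and -0.68. Kcnab3 had 9.21, 9.14 and 8.53 in SMA MMC, against 9.89, 9.85 and 10.09 in WT MMC, a difference of -0.98 (SE 0.34, adjusted p = 0.166). Each passed in 1 alternative alone, the authors' deposited normalized values, with -0.73 for Kcnk9 (adjusted p = 0.0453) and -0.71 for Kcnab3 (adjusted p = 0.0278). Kcnc1 had 0.92 (adjusted p = 0.276) and Kcnh6 -0.39 (0.365).

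In LMC, Kcnk2, a leak channel gene opened by stretch and lipids, had 7.34, 8.39 and 6.26 in SMA LMC, against 6.26, 6.10 and 5.17 in WT LMC. The groups were separate, but the difference of 1.49, with 1 of 3 WT arrays at background, did not pass (SE 0.62, adjusted p = 0.701), and its second probe, detected on 3 arrays, differed by -0.32. Kcnc1, a Shaw gene of fast-firing neurons, had 6.24, 7.95 and 6.72 in SMA LMC, against 5.96, 5.78 and 6.15 in WT LMC, a difference of 1.01 (SE 0.40, adjusted p = 0.701), with -0.19 on its other detected probe and 0.52 to 1.37 with 1 array left out. Kcnc2 had 6.52, 6.67 and 5.85 in SMA LMC, against 7.84, 7.27 and 7.01 in WT LMC, a difference of -1.03 (SE 0.60, adjusted p = 0.715), and 3 of its 4 other detected probes had the same sign. Kcnj12 differed by -0.98 (adjusted p = 0.701) and Kcnk13 by 0.81 (adjusted p = 0.701).

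In DRG, Kcnk1 had 7.99, 8.07 and 7.83 in SMA DRG, against 8.78, 9.12 and 8.35 in WT DRG. Every SMA value was lower, with a difference of -0.79 that did not pass (SE 0.29, adjusted p = 1.00) and -0.73 on its second probe. Kcnh2 differed by -0.94, Kcnk15 by -0.61, Kcnmb1, a subunit of the channel of Kcnma1, by -0.60 and Kcnn1 by 0.36, all with an adjusted p of 1.00. Kcnk1 had values of opposite sign in DRG and in the raphe, but the difference of 1.43 between them did not pass (adjusted p = 0.877). Over the 6 pairs of tissues, 0 potassium channel genes passed limma's test of a different genotype effect, where 0.0% of all genes passed for raphe minus DRG, 0.0292% for raphe minus LMC, 0.0395% for raphe minus MMC, 0.0% for DRG minus LMC, 0.0475% for DRG minus MMC and 0.0414% for LMC minus MMC. At an unadjusted p under 0.05 there were 4 of 52 potassium channel genes for raphe minus DRG (3.26% of all genes), 6 of 43 for raphe minus LMC (6.42%), 7 of 44 for raphe minus MMC (10.1%), 1 of 53 for DRG minus LMC (3.15%), 3 of 53 for DRG minus MMC (8.27%) and 6 of 43 for LMC minus MMC (9.66%).

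Some potassium channel genes had like values on the probe used in the SMA arrays of both motor columns, which share no arrays. Whether the same animals gave both columns is not stated in the sample titles. Kcnk2 had SMA minus WT differences of 1.39 in MMC and 1.49 in LMC, 0.08 in DRG and 0.04 in raphe. Kcnc2 had differences of -1.16 in MMC and -1.03 in LMC, 0.00 in DRG and -0.03 in raphe. In a fit of the mean SMA minus WT difference of both columns, chosen after these values were seen, 0 of 43 potassium channel genes passed in limma's test, where 0.341% of all genes did. Unadjusted, 8 of the 43 had a p under 0.05, against 11.7% of all genes. The mean difference was 1.44 for Kcnk2 (SE 0.44, adjusted p = 0.193), -1.10 for Kcnc2 (SE 0.42, adjusted p = 0.317) and 0.96 for Kcnc1 (SE 0.29, adjusted p = 0.178). Differences of the 4 other detected Kcnc2 probes lay between -1.22 and -0.20 in MMC and between -1.06 and 0.18 in LMC. In LMC the other detected probe had the opposite sign for Kcnk2 (-0.32) and for Kcnc1 (-0.19). In MMC that of Kcnc1 differed by 0.91.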

How the data were processed

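Per the file headers, the authors deposited 1 table that pairs the intensity of every probe with its detection p-value, and 1 of normalized log2 values, whose method the sources used here do not give. Its direction follows the intensities, while the method behind its scale and centring is unknown, and its column medians lay between 7.54 and 7.57. GenomeStudio, without a version, is named in the submitters' processing notes. Of the signals of an array, 23.9 to 38.5% were below 0.

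Of 45281 probes, 34885 had 1 gene symbol in the platform annotation, 18 several and 10378 none. All 84 potassium channel genes matched the GRCm38.p6 gene table by gene number. Intensities were corrected with normexp (control statistics from the detection p-values, offset 16), quantile-normalized and put on a log2 scale in limma 3.58.1 and R 4.3.3. All 24 arrays entered 1 fit with a mean for every group (16 residual degrees of freedom, mean-variance trend), with Benjamini-Hochberg adjustment over all genes tested. Adjusted p-values are two-sided and from limma, and SE is that of a log2 difference. The pipeline was tested on simulated data. The number of arrays, 3 per group, limits the precision.

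Groups came from the sample titles. The members and lists were chosen with earlier results of these data known. Genes named for SMA against WT are those past the threshold and, in each direction, the 4 of smallest p without overlap. For tissues they are up to 8 in each direction past the threshold without overlap, and for detection those in DRG alone or on all arrays. Kcnc1, Kcnc2, Kcnc4, Kcna1, Kcna2, Kcnd3, Kcnj6, Kcnk18, Kcnn2 and Kcnma1 were also fixed. Alternatives changed the offset, normalization, source, filter, probe, arrays in the fit, array weights, trend and replicate block, or left out arrays. Same-numbered SMA and WT arrays of a tissue had residual correlations of -0.09 to 0.32, so the numbers were not used as pairs. Whether same-numbered arrays of different tissues came from the same animal was not examined, and the tests treat them as independent.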

Additional observations from a re-analysis of the deposited data

How the results depend on the processing

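Every value rests on 3 arrays per group, and a probe at background on all arrays of a group gives only a bound there. Potassium channel genes past the threshold numbered 1 in SMA MMC against WT MMC. The count was 3 with the deposited normalized values, 2 with the mean of detected probes, and 0 with a detection p under 0.01, with array weights or with only the MMC arrays. Leaving out 1 array gave 0 (without SMA MMC replicate 3) to 2 (without WT MMC replicate 2). In the SMA raphe against the WT raphe the count of 1 became 0 with scale normalization, the mean of detected probes, no trend or only the raphe arrays. Leaving out 1 array gave 0 (without WT Raphe replicate 3, SMA Raphe replicate 2 or SMA Raphe replicate 3) to 2 (without SMA Raphe replicate 1). In LMC and DRG it was 0 under every alternative run.

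The difference of Kcnc4 in the SMA raphe was 1.07 with scale normalization (adjusted p = 0.0736), 0.93 with the mean of detected probes (0.380), 1.04 with no trend (0.118), 1.04 with only the raphe arrays (0.217) and 0.64 to 1.31 with 1 array left out. With the replicate block, which the numbers do not justify, it passed (adjusted p = 0.0471), and the counts were 1 in MMC, 0 in LMC, 0 in DRG, 1 in the raphe, 26 in DRG against motor columns, 14 in raphe against motor columns, 23 in DRG against raphe and 5 in LMC against MMC. WT LMC against WT MMC gave 5 genes, 3 with only those arrays and 3 to 5 with 1 array left out, the lowest without WT LMC replicate 1. Tests of a different genotype effect gave 0 genes, but 1 (Kcnd2) with the mean of detected probes and 0 to 1 with 1 array left out (Kcnc4, without WT Raphe replicate 2). DRG against motor columns gave 20 to 34 genes, raphe against motor columns 12 to 17 and DRG against raphe 17 to 28.

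Of 1180 alternatives of 69 differences of single genes, 1145 kept direction and side of the threshold, 32 lost the call, 2 gained it and 1 reversed, Kcnc4 in DRG against motor columns with the mean of detected probes (0.46). Scale normalization moved the median of all genes to -0.21 in DRG against motor columns (-0.03 with quantile normalization), -0.29 in raphe against motor columns (-0.11) and 0.24 in LMC against MMC (0.15). Where a cause is not named, it was not tested.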

Other observations

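Other genes of potassium handling, in lists chosen with earlier results of these data known, gave further tissue differences. Slc12a5, the neuronal exporter of potassium and chloride, had mean log2 levels of 6.60 in WT DRG, 12.06 in the WT raphe, 12.55 in WT LMC and 12.39 in WT MMC, a difference of -5.87 in DRG against motor columns (SE 0.29, adjusted p = 4.62e-13). Slc12a2, which imports potassium and chloride, was 0.78 higher in DRG than in motor columns (adjusted p = 0.000246). Of the 4 pump and cotransporter genes tested, 3 passed in that comparison, 1 higher and 2 lower, where 24.3% of all genes passed. Hcn2, a pacemaker channel gene, was lower than in the motor columns in DRG (difference -1.67, adjusted p = 0.00146) and in the raphe (difference -1.49, adjusted p = 0.00406), 1 of 2 genes of its list tested. Of 10 measured genes that cluster Shaker channels at axons, 4 passed in DRG against motor columns (1 higher, 3 lower; 24.3% of all genes passed), 6 in raphe against motor columns (2 higher, 4 lower; 29.1% of all genes), 5 in DRG against raphe (4 higher, 1 lower; 20.1% of all genes) and 2 in LMC against MMC (2 higher; 3.61% of all genes). The genes in LMC against MMC were Cntn1 (0.67 higher) and Cntnap1. Cntnap1 stands beside the node of Ranvier and was 2.67 higher in LMC than in MMC (SE 0.54, adjusted p = 0.00673).

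In SMA against WT, 1 gene of these lists passed in any tissue, in MMC, where 1.51% of all genes passed. Adam22, a partner of Shaker channels at axons, had mean log2 levels of 7.60 in SMA MMC and 9.40 in WT MMC (difference -1.80, SE 0.36, adjusted p = 0.0124), 8.74 in SMA LMC and 9.37 in WT LMC (difference -0.62, adjusted p = 0.712), 9.57 in SMA DRG and 9.53 in WT DRG, and 8.82 in the SMA raphe and 8.65 in the WT raphe. The genotype effect of Adam22 did not pass limma's test of a difference between tissues, with 1.98 for raphe minus MMC (adjusted p = 0.131), 1.85 for DRG minus MMC (0.267) and 1.18 for LMC minus MMC (0.486).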
